A study of Arabidopsis thaliana with 4 samples.

Results

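Nuclear genes with a transcript level at least 2-fold lower in albino Arabidopsis thaliana plants than in normal-looking plants of the same line, in both pairs of arrays, numbered 93, each chosen through 1 probe set of the 22746 on the array. They were chosen on the log2 RMA values by 2 differences, albino minus control within replicate 1 (pair 1) and within replicate 2 (pair 2), both at most -1, where 1 unit of log2 is a factor of 2. Of the 219 probe sets that met this threshold, 118 were unnamed in the annotation, 4 stood for several genes, 1 read the plastid gene rpl36, and 3 read SAG29, LCR67 and a calmodulin-like gene, which are not described here. The remaining 93 genes are called the members below. All values of the albino against control contrast had a part in choosing them, so these values are given as a description and none of them is a test.

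The albino group held 2 arrays of albino segregants, and the control group 2 arrays of segregants of normal appearance. Both kinds of plant came from 1 parental line of the mutant DS 13-2198-1. They grew together on dilute MS (Murashige and Skoog) plates with added sucrose, under long days, to an age of 3 weeks. The labels name neither the mutated gene nor the number of plants in a pool. They do not separate wild-type from heterozygous plants among the normal segregants, and the free-text description of all 4 samples says wild type, so the groups rest on the titles and source names. Nothing states that the replicates were separate pools of plants.

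Albino plants lack chlorophyll and cannot feed themselves by photosynthesis, so they are kept alive on sugar in the medium. The state of the plastid is known to alter the expression of nuclear genes, a path called retrograde signalling. Besides photosynthesis genes, the nuclear genome of Arabidopsis holds large families of secreted and defence-linked proteins, such as class III peroxidases, chitinases, glycosyltransferases and enzymes that remodel the cell wall, many of which respond to stress, wounding or organ age.

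The members were 4.34-fold lower in the albino array of pair 1 at the median (-2.12 on the log2 scale) and 2.28-fold lower in that of pair 2 (-1.19). The median of the mean difference was -1.67, against 0.02 over all 22746 probe sets. In pair 1 the differences ran from -5.01 to -1.06, and in pair 2 from -1.80 to -1.01. The steepest pair 1 value belonged to ChiC, a class V chitinase, and the steepest pair 2 value to AT1G26420. In RNA of whole plants, fewer cells of a type and less RNA per cell cannot be told apart.

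Pair 1 carried the larger difference for 84 of the 93 members, and pair 2 for 9. Over all probe sets pair 1 also spread wider, with quartiles of -0.30 and 0.31 against -0.15 and 0.21 in pair 2. A difference of at least 4-fold was found in pair 1 for 54 members and in pair 2 for 0. Beyond 16-fold in pair 1 stood 5 members, ChiC, AT4G23680, AT4G12490, AT4G16563 and AT1G22690, each between 2.05-fold and 2.91-fold in pair 2. Within the 93 members the size of the difference in one pair said little about its size in the other. Pearson's r was 0.08 and Spearman's rho 0.09, but the rule truncates the members' range at -1 on both axes and they share the 4 arrays. Over all 22746 probe sets, without that truncation, the pair differences correlated with r = 0.593. Of the probe sets of 1 nuclear gene, 449 were at least 2-fold lower in pair 1 and 136 in pair 2, and the 96 that met both thresholds, left-out genes included, made up 21.4% of the first list and 70.6% of the second.

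**Figure D1:**
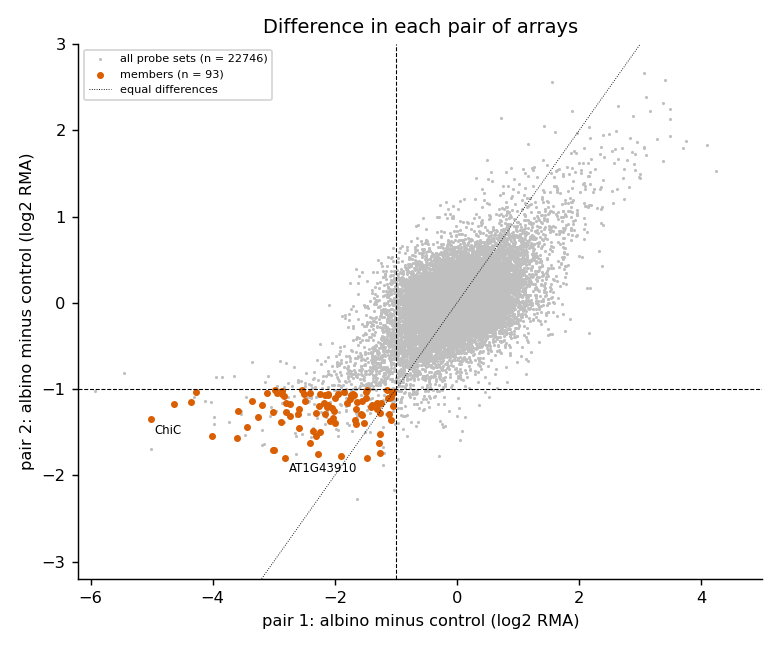
Difference (albino minus control, log2 RMA) of each probe set in pair 1 (horizontal) and pair 2 (vertical), with all 22746 probe sets in grey, the 93 members in orange and dashed lines at -1. The members stretch to -5.01 along the pair 1 axis and only to -1.80 along the pair 2 axis, and most lie left of the dotted line of equal differences.

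The threshold of -1 in both pairs passed 96 of 13367 probe sets of 1 nuclear gene, or 0.718%, and 219 of all 22746, or 0.963%. In the other direction, 63 probe sets of 1 nuclear gene (0.471%) were at least 2-fold higher in both pairs, and 0 probe sets were 2-fold lower in one pair and 2-fold higher in the other. With limma, fitted over all probe sets, 0 were called lower (0.0%) and 0 higher (0.0%) at an adjusted p under 0.05, and 0 of the 93 members were called. At an unadjusted p under 0.05, 701 of all probe sets were lower (3.08%), 83 of the members among them. Among the fits with 1 array left out, the count of calls moved only without albino replicate 2, and the cause was not tested. Without albino replicate 2, which leaves a single albino array assumed to vary like the control arrays, limma called 152 probe sets lower, 49 of them members, and 30 higher.

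The members differed more between the albino arrays than between the control arrays. Their median value was 5.09 in albino replicate 1 and 6.13 in albino replicate 2, against 7.13 and 7.56 in the control arrays. Albino replicate 1 was the lowest of the 4 arrays for 83 members and albino replicate 2 for the other 10. From albino replicate 1 to albino replicate 2 the median signed gap was 1.27, where the control arrays had 0.30. All probe sets had 0.08 between either pair of replicates, a value in which gaps of opposite sign cancel. Taken without sign, the median gap of the members was 1.27 in the albino arrays and 0.44 in the control arrays. Over all probe sets it was 0.34 and 0.37. The deposited values look normalized within each replicate number, so these gaps cross 2 scales. After quantile normalization of all 4 arrays together the median signed gap of the members was 1.195 in the albino arrays and 0.07 in the control arrays.

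For 91 of the 93 members the higher albino array lay below the lower control array, a separation that 13.6% of all probe sets showed in this direction. In AT1G26420 and AT4G30170 the groups overlapped, although each pair differed by more than 2-fold. AT1G26420 had values of 3.10 and 4.61 in the albino arrays, against 4.57 and 6.41 in the control arrays. AT4G30170 had 3.19 and 4.92 in the albino arrays, against 4.84 and 6.33 in the control arrays. In both genes albino replicate 2 was slightly above control replicate 1. Signals in albino replicate 1 were often dim. There, 21 members lay under the array's lower quartile of 4.12 and 66 under its median, while in albino replicate 2 these counts were 0 and 46. In the control arrays 0 members lay under the lower quartile, and 9 and 12 under the median. Background signal compresses differences of dim probe sets, so the size of a difference that reaches that range is less certain.

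**Figure D2:**
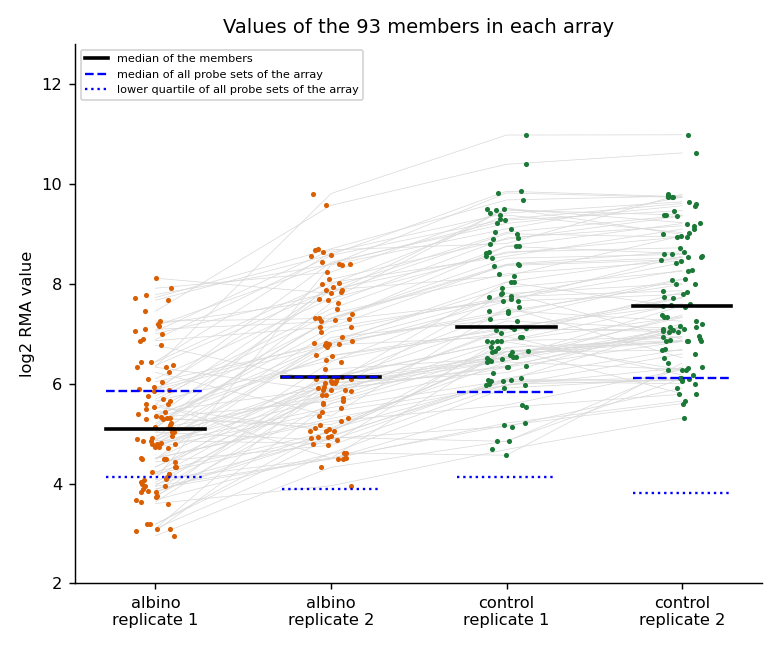
Log2 RMA values of the 93 members in each array (albino in orange, control in green), 1 point per member joined by thin lines, with the members' median (black) and the median and lower quartile of all probe sets of that array (blue). The members' median is 5.09 in albino replicate 1 and 6.13 in albino replicate 2, against 7.13 and 7.56 in the control arrays.

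Organ markers were looked up on the same arrays. Here and below, a gene counts as measured if a probe set is annotated to it alone. Since 8730 probe sets are unnamed, genes not counted as measured may still be on the array. Of 12 listed root markers 3 were measured, and their summed signal on the linear scale was 514 and 1210 in the albino arrays, against 2360 and 1890 in the control arrays. Nearly all of it came from PYK10, with values of 8.89 and 10.19 in the albino arrays, against 11.18 and 10.86 in the control arrays. EXPA7 and EXPA18, expansin genes of root hairs, stayed between 3.94 and 4.87 on all arrays. Of 6 listed leaf markers LHCB4.1 and RCA were measured, with a summed signal of 12000 and 12200 in the albino arrays, against 10900 and 11200 in the control arrays. Of 3 shoot meristem markers 1 was measured, CLV3, with a linear signal of 21.8 and 14.5 in the albino arrays, against 34.5 and 12.1 in the control arrays, and 0 of the flower and seed markers were measured. PYK10 had the same order of arrays within the albino group as most members, and the part of root tissue in the members' values was not tested.

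Of the 93 members, 20 carry a gene name or function in the tables used here and 73 are known only by locus. The named members fall into cell wall enzymes, peroxidases, phenylpropanoid metabolism, starch and sucrose metabolism, glycosyltransferases, redox enzymes, a chitinase and a few others. These headings were assigned after the members were known. Over the named members the median difference was -2.12 in pair 1 and -1.18 in pair 2, and over those known by locus -2.08 and -1.23.

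Among the cell wall enzymes, ATPMEPCRB, also listed as PME41, encodes a pectin methylesterase, an enzyme that removes methyl groups from pectin. Its values were 5.13 and 7.32 in the albino arrays, against 8.39 and 8.64 in the control arrays. The differences were -3.26 in pair 1 and -1.33 in pair 2, the widest of the 3 cell wall members in both pairs. XTH18 and XTH29 encode xyloglucan endotransglucosylase/hydrolases, which cut and rejoin the xyloglucan chains that tether cellulose. XTH18 had 5.35 and 6.80 in the albino arrays, against 7.45 and 7.98 in the control arrays. For XTH29, dim in all arrays, the values were 3.89 and 4.49 in the albino arrays, against 5.21 and 5.65 in the control arrays. In all 3 genes both albino arrays lay below both control arrays.

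These were the 3 members among 35 measured genes of a list of cell wall enzymes and structural proteins. The list rests on name patterns and also took in PMEAMT, a phosphoethanolamine methyltransferase gene. Of the 35, 15 were lower in both pairs by any amount and 12 were higher, where 26.7% of all measured nuclear genes were lower and 34.6% higher in both pairs. The median difference of the list was -0.06, against 0.03 over the 13217 measured nuclear genes. Relatives of a member could differ in direction. XTH19 had 7.71 and 7.43 in the albino arrays, against 6.01 and 6.97 in the control arrays, a mean difference of 1.08 (SE 0.39), although its relative XTH18 was lower. Of 10 measured xyloglucan endotransglucosylase genes, 5 were lower and 2 higher in both pairs. Of 5 measured pectin methylesterase genes, 3 were lower in both pairs and 1 higher, and the next after ATPMEPCRB was PMEPCRF, with -0.92 in pair 1 and -0.54 in pair 2. The gene of the wider list with the highest difference was the expansin gene EXPA8, at 3.09 in pair 1 and 2.38 in pair 2.

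Class III peroxidases are secreted enzymes that cross-link wall phenolics or make reactive oxygen. AT5G64120, listed as peroxidase 71, is bright in the control arrays, and its values were 7.78 and 8.39 in the albino arrays, against 9.82 and 9.73 in the control arrays. PRX52, a peroxidase linked to lignin formation, had 8.11 and 7.81 in the albino arrays, against 9.51 and 8.99 in the control arrays. Here albino replicate 2 was the lower albino array, and the pairs differed little in size (-1.39 in pair 1 and -1.18 in pair 2). Of 7 peroxidase genes recognised by name, 3 were lower in both pairs, 2 higher and 2 opposite. Genes known only by locus could not be recognised this way, so peroxidase genes may be missing from this count, members among them. Prx37, also lower in both, missed the threshold in pair 1 alone (-0.96 in pair 1 and -1.40 in pair 2). PRXR1 was the highest of the 7, with a mean difference of 0.33 (SE 0.27).

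Phenylpropanoid metabolism makes lignin monomers, coumarins and related phenolics from phenylalanine. BGLU45 and BGLU46 encode beta-glucosidases that release lignin monomers from their glucosides, and the genes lie next to each other on chromosome 1. BGLU45 had 6.36 and 7.88 in the albino arrays, against 8.61 and 8.94 in the control arrays. BGLU46 had 5.30 and 6.57 in the albino arrays, against 7.09 and 7.73 in the control arrays. Both genes were lowest in albino replicate 1 and intermediate in albino replicate 2. CCOAMT, a caffeoyl-CoA O-methyltransferase gene of lignin monomer synthesis, was measured at 5.38 and 6.56 in the albino arrays, against 7.02 and 7.71 in the control arrays. AT3G13610, listed as F6'H1, encodes the feruloyl-CoA hydroxylase that opens the route to the coumarin scopoletin. Its values were 4.73 and 6.01 in the albino arrays, against 6.46 and 7.07 in the control arrays. The differences of the 4 genes lay between -2.25 and -1.64 in pair 1 and between -1.16 and -1.06 in pair 2. This closeness is not particular to them, since the rule cuts both pairs at -1. The quartiles of all 93 members were -2.796 and -1.525 in pair 1 and -1.357 and -1.083 in pair 2.

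With PRX52, 5 of 9 measured genes of a phenylpropanoid and lignin list were members. This list was written after the members were known and includes them by construction, so its count is no evidence of direction. Among its 4 other measured genes, the hydroxycinnamoyltransferase gene HCT was lower in both pairs (-0.84 in pair 1 and -0.47 in pair 2) and UGT72E2 slightly so (-0.15 in pair 1 and -0.06 in pair 2). UGT72E1 and UGT72E3, like UGT72E2, encode glucosyltransferases of lignin monomers. UGT72E1 was higher in both pairs (0.64 in pair 1 and 0.32 in pair 2), with a mean difference of 0.48 (SE 0.26). UGT72E3 was higher in pair 1 (0.49) and almost level in pair 2 (0.003), with a mean difference of 0.25 (SE 0.32). Genes for the enzymes that start the pathway, such as phenylalanine ammonia-lyase, are not analysed here.

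Of 22 measured beta-glucosidase genes, BGLU45 and BGLU46 were the 2 members. Over this family 9 genes were lower and 6 higher in both pairs, with a median difference of -0.02. PYK10, the abundant beta-glucosidase of root endoplasmic reticulum bodies, missed the threshold in pair 2 (-2.29 in pair 1 and -0.67 in pair 2). In the opposite direction BGLU33 had 2.08 in pair 1 and 1.16 in pair 2, more than 2-fold higher in both.

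Starch and sucrose metabolism gave 2 members. AMY1 encodes an alpha-amylase, which cleaves starch, and its values were 5.17 and 7.30 in the albino arrays, against 8.36 and 8.48 in the control arrays. The control arrays lay close to each other, and the albino arrays far apart. ATSPS4F encodes a sucrose-phosphate synthase, which catalyses a controlling step of sucrose synthesis, with 4.73 and 6.13 in the albino arrays, against 6.86 and 7.34 in the control arrays. Other amylase and sucrose-phosphate synthase genes are not analysed here.

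UDP-glycosyltransferases attach sugars to hormones, phenolics and other small molecules. UGT87A2 had 7.91 and 8.23 in the albino arrays, against 9.47 and 9.38 in the control arrays, one of the steadier members within each group. UGT85A2 had 6.33 and 5.85 in the albino arrays, against 7.82 and 6.89 in the control arrays, and its albino and control arrays both had lower values in replicate 2. Of 51 measured genes of this family, 23 were lower and 13 higher in both pairs, and the family's median difference was -0.09. UGT84A3 stood just outside the threshold, with -1.60 in pair 1 and -0.99 in pair 2, and a probe set shared by UGT73B2 and UGT73B3 met it but stands for several genes. At the other end, UGT76C2 had a mean difference of 0.63 (SE 0.28).

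ChiC, a class V chitinase that degrades chitin, had the widest difference of all members. Its values were 4.09 and 8.38 in the albino arrays, against 9.10 and 9.73 in the control arrays. Albino replicate 1 alone was dim, and albino replicate 2 lay 4.29 above it, the widest gap between the albino arrays among the 93. The difference was 32.2-fold in pair 1 and 2.56-fold in pair 2, and its mean of -3.18 (SE 1.31) carried the largest SE of the members. A list of pathogenesis-related proteins and chitinases had 5 measured genes, all lower in both pairs by any amount. Over all measured nuclear genes 26.7% were lower in both pairs. ChiC was the 1 member on the list, and the median of the 5 genes was -1.14. The osmotin gene OSM34 had -2.67 in pair 1 and -0.75 in pair 2, and the gene listed as CHI, a putative chitinase, -1.49 in pair 1 and -0.79 in pair 2. The list took in XEG113 through the letters of its full name (-0.44 in pair 1 and -0.49 in pair 2), and PR-1-LIKE was the highest of the 5 (-0.01 in pair 1 and -0.41 in pair 2).

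Of the redox enzymes, MSRB5 encodes a methionine sulfoxide reductase, which repairs oxidized methionine, and its values were 7.15 and 8.40 in the albino arrays, against 9.27 and 9.46 in the control arrays. Of 5 measured genes of this family 3 were lower in both pairs and 0 higher. MSRB9 missed the threshold in pair 2 (-1.77 in pair 1 and -0.78 in pair 2), and MSRB6, the highest of the 5, differed by -0.08 (SE 0.28). FMO, listed as a flavin monooxygenase, had 5.49 and 7.26 in the albino arrays, against 7.66 and 8.55 in the control arrays. Its albino replicate 2 came near control replicate 1, so the group separation was narrow. Of 5 measured flavin monooxygenase genes FMO was the 1 member. YUC2 had the highest mean difference, 0.85, with opposite signs in the pairs (1.72 in pair 1 and -0.01 in pair 2).

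NAI2 encodes a protein needed to form endoplasmic reticulum bodies, the compartments that store PYK10. It had 6.44 and 8.63 in the albino arrays, against 9.41 and 9.64 in the control arrays, and of the 93 members it lay nearest to the threshold in pair 2 (-1.01). Its known regulator NAI1 differed by -0.12 (SE 0.27) with opposite signs in the pairs. OCT1, an organic cation and carnitine transporter, had 3.75 and 5.61 in the albino arrays, against 6.33 and 6.84 in the control arrays. Its relatives OCT4 and OCT5 were also lower in both pairs, OCT4 with -1.40 in pair 1 and -0.62 in pair 2 and OCT5 with -0.18 in pair 1 and -0.45 in pair 2. GAT1_2.1, a glutamine amidotransferase gene, had 4.85 and 7.04 in the albino arrays, against 7.75 and 8.42 in the control arrays. PAP85, for which the tables give a symbol and no function, had 3.63 and 5.88 in the albino arrays, against 6.36 and 7.05 in the control arrays. In these 4 genes albino replicate 1 was far below albino replicate 2, and the control arrays lay closer together. Of 9 transporter genes found by name OCT1 was the 1 member, and NRT2.5, a nitrate transporter gene, had the highest mean difference, 0.65.

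**Figure D3:**
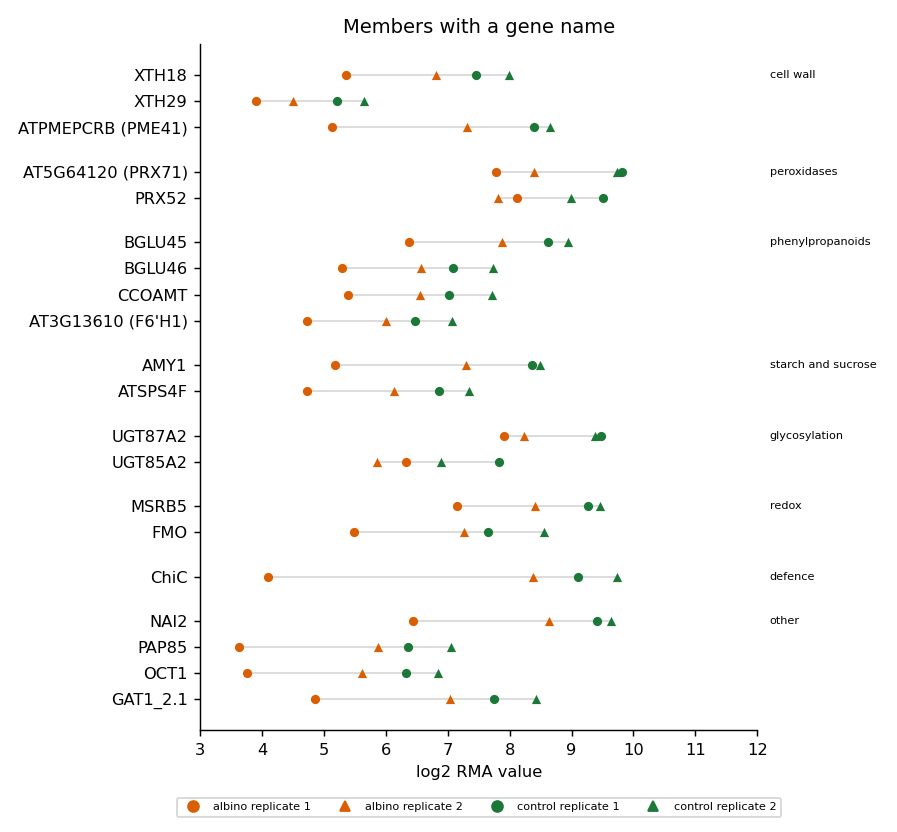
Log2 RMA values of the 20 members with a gene name, grouped by role, with albino replicates 1 and 2 in orange (circle, triangle) and control replicates 1 and 2 in green (circle, triangle). Both albino arrays lie below both control arrays in each of the 20 genes, and ChiC has the widest gap between the albino arrays, 4.29.

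**Figure D4:**
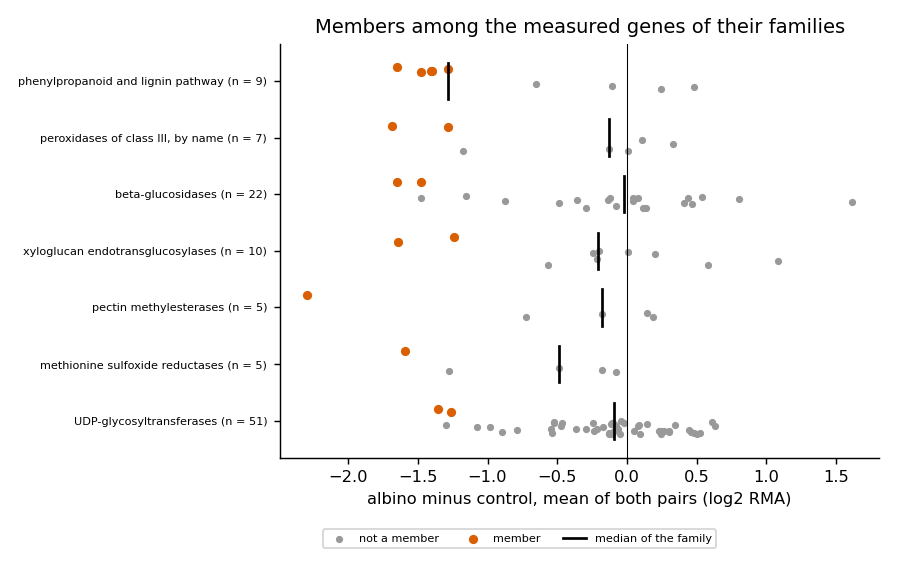
Mean albino minus control difference (log2 RMA, horizontal) of the measured genes of 7 families, members in orange, other genes in grey and the family median as a black bar. The medians of the beta-glucosidases (-0.02) and UDP-glycosyltransferases (-0.09) lie near 0. Their members lie at the lower end, which follows from how members were chosen.

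Members known only by locus filled the first 9 places when members were ranked by the weaker of their 2 differences, and these were at most -1.5 in both pairs. AT1G43910 led this order, with 3.83 and 5.05 in the albino arrays, against 6.65 and 6.84 in the control arrays. AT2G32190 had 2.96 and 4.32 in the albino arrays, against 4.85 and 6.11 in the control arrays. A second probe set, which AT2G32190 shares with AT2G32210, was also lower in both pairs (-1.76 and -1.19). For AT1G65690 the values were 3.84 and 4.94 in the albino arrays, against 6.11 and 6.69 in the control arrays. In these 3 genes the weaker pair still differed by 3.36-fold to 3.47-fold, and both albino arrays were lower than both control arrays.

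AT3G46280 and AT5G44380 had nearly the same pattern over the arrays. AT3G46280 had 5.03 and 6.82 in the albino arrays, against 8.04 and 8.53 in the control arrays. AT5G44380 had 5.75 and 7.50 in the albino arrays, against 8.75 and 9.21 in the control arrays. In pair 1 they were lower by 8.06-fold and 8.01-fold, and both 3.27-fold lower in pair 2. AT5G39670 had 4.23 and 5.04 in the albino arrays, against 6.63 and 6.67 in the control arrays. Its control arrays nearly coincided. AT1G22690 was among the widest in pair 1, with 4.91 and 7.62 in the albino arrays, against 8.92 and 9.16 in the control arrays. AT1G74010 had 7.19 and 7.68 in the albino arrays, against 9.50 and 9.22 in the control arrays, with less spread inside the albino group than most members.

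In the next tier the weaker difference lay between -1.5 and -1.25. It held 28 members, and those listed under a locus were AT3G25790, AT1G13340, AT1G26420, AT1G30700, AT3G20370, AT4G30170, AT5G38900, AT2G18690, AT1G60730, AT2G37750, AT5G64120, AT1G23140, AT3G21080, AT2G41640, AT4G36430, AT3G56060, AT5G12420, AT1G13750, AT2G15130, AT2G39210, AT4G30670, AT1G19200, AT4G24130 and AT5G39580. AT1G60730 and AT2G37750 showed little spread between albino arrays. AT2G37750 had 7.09 and 7.25 in the albino arrays, against 8.75 and 8.60 in the control arrays. Its mean difference of -1.51 (SE 0.25) had one of the smallest SEs of the set, near the lowest over all probe sets (0.245). AT1G19200 had almost the same difference in each pair (-1.26 in pair 1 and -1.28 in pair 2). AT4G30670 was one of the 9 members with the larger difference in pair 2, with 5.32 and 5.11 in the albino arrays, against 6.58 and 6.84 in the control arrays.

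Of the other leading members, AT3G25790 had 3.67 and 4.60 in the albino arrays, against 5.91 and 6.10 in the control arrays. AT1G13340 had 4.50 and 6.11 in the albino arrays, against 6.85 and 7.60 in the control arrays. AT1G30700 was measured at 3.86 and 5.93 in the albino arrays, against 6.45 and 7.37 in the control arrays. In the first of these the albino arrays were closer together than in the others. AT3G20370 differed strongly in pair 1, with 5.59 and 7.93 in the albino arrays, against 9.03 and 9.37 in the control arrays. AT5G38900 had 5.92 and 6.86 in the albino arrays, against 7.92 and 8.25 in the control arrays. AT2G18690 had 6.86 and 7.14 in the albino arrays, against 8.38 and 8.53 in the control arrays, with both groups tight. The pair differences of AT2G18690 were close to each other (-1.52 in pair 1 and -1.39 in pair 2), unlike those of AT3G20370 (-3.44 in pair 1 and -1.44 in pair 2).

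AT1G60730 had 4.86 and 4.80 in the albino arrays, against 6.94 and 6.17 in the control arrays, and here the control arrays were farther apart than the albino arrays. For AT1G23140 the values were 4.34 and 5.78 in the albino arrays, against 7.08 and 7.09 in the control arrays. For AT3G21080 they were 4.43 and 4.77 in the albino arrays, against 5.99 and 6.07 in the control arrays. The control arrays of these last genes nearly coincided. AT2G41640 showed 3.95 and 4.50 in the albino arrays, against 5.52 and 5.79 in the control arrays. AT4G36430 showed 4.79 and 6.80 in the albino arrays, against 7.40 and 8.10 in the control arrays. AT3G56060 showed 4.02 and 5.87 in the albino arrays, against 6.34 and 7.15 in the control arrays. In AT4G36430 and AT3G56060 albino replicate 2 came near control replicate 1. AT5G12420 had 4.79 and 5.52 in the albino arrays, against 6.07 and 7.14 in the control arrays, with the larger difference in pair 2 (-1.28 in pair 1 and -1.62 in pair 2).

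Between -1.25 and -1.1 the weaker difference held 29 members. Those listed under a locus were AT4G00700, AT5G60250, AT4G33560, AT2G27080, AT2G23910, AT4G23680, AT1G78780, AT4G25900, AT2G30840, AT1G08310, AT4G12490, AT3G05400, AT2G41380, AT5G06730, AT1G25550, AT5G18840, AT1G10340, AT5G52750 and AT1G56060. AT4G23680 had 6.34 and 9.80 in the albino arrays, against 10.98 and 10.98 in the control arrays. Its difference was 24.9-fold in pair 1 and 2.26-fold in pair 2. AT1G10340 differed equally in both pairs (-1.11 in pair 1 and -1.11 in pair 2).

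The remaining 27 members lay between -1.1 and -1, and those listed under a locus were AT2G32030, AT3G05730, AT5G52760, AT4G08780, AT4G33420, AT3G13610, AT1G73600, AT3G60420, AT1G21520, AT5G42830, AT1G67600, AT1G14780, AT1G26930, AT2G43620, AT5G20790, AT1G52200, AT2G20142, AT4G16563, AT1G08050, AT3G47480, AT4G32870, AT3G10320 and AT2G42360. AT4G16563 had 5.10 and 7.99 in the albino arrays, against 9.37 and 9.02 in the control arrays, 19.3-fold lower in pair 1 and 2.05-fold in pair 2. AT1G67600 differed alike in both pairs (-1.06 in pair 1 and -1.06 in pair 2). The genes AT4G23680, AT4G16563, AT4G12490, AT4G30670, AT1G19200, AT1G10340 and AT1G67600 were singled out after their values were seen.

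Just inside the threshold by their weaker difference were NAI2, AT2G42360 and AT3G10320 (-1.01 each) and AT4G32870 (-1.02). Just outside were AT3G16560, AT2G22880, SFP1 and AT5G10040, between -0.998 and -0.994. These 4 genes outside had pair 1 differences from -1.65 to -1.04, so the members and the genes outside adjoined without a gap.

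A few members lie side by side on a chromosome. Among protein-coding genes of the TAIR10.1 assembly, used here for gene order only, BGLU45 and BGLU46 on chromosome 1 and AT5G52750 and AT5G52760 on chromosome 5 are adjacent, and AT4G12490 and AT4G12500 on chromosome 4 have 1 gene between them that is not measured here. AT4G12490 had 3.10 and 6.10 in the albino arrays, against 7.46 and 7.25 in the control arrays. AT4G12500 had 4.19 and 6.44 in the albino arrays, against 7.80 and 8.00 in the control arrays. These 2 had the widest differences of the 6 genes in pair 1, -4.36 and -3.61. AT5G52750 had 5.65 and 6.47 in the albino arrays, against 7.13 and 7.57 in the control arrays. AT5G52760 had 3.60 and 3.95 in the albino arrays, against 4.68 and 5.31 in the control arrays, and was the 1 of the 6 with the larger difference in pair 2.

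None of the measured neighbours within 3 genes of these pairs was 2-fold lower in either pair of arrays. The nearest approach was AT1G61850 on the BGLU46 side, with -0.88 in pair 1 and -0.11 in pair 2. Between it and BGLU46 lies AT1G61840, which had 1.13 and -0.01 at a dim signal. AT5G52740 and AT5G52770, on either side of the chromosome 5 pair, had 0.21 and 0.61 in pair 1 and -0.09 and -0.11 in pair 2. Beside the members on chromosome 4 the 1 measured neighbour was AT4G12530, with -0.38 and 0.10. Neighbours not measured, among them AZI1 and EARLI1, have no probe set annotated to them alone but may be read by unnamed probe sets. Paralogs that stand in tandem can share sequence, and the probe sequences are not used here, so cross-hybridization between such neighbours was not tested. No member was read by a probe set whose suffix marks shared probes.

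**Figure D5:**
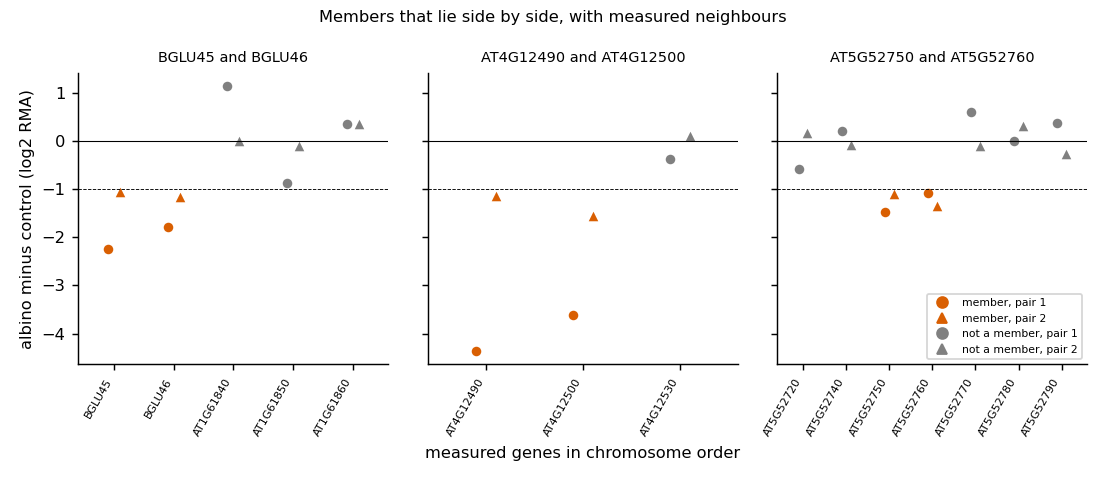
Albino minus control difference (log2 RMA, vertical) in pair 1 (circles) and pair 2 (triangles) for 3 sets of members that lie side by side or 1 gene apart (orange) and the measured genes within 3 places (grey), in chromosome order. The members lie below the dashed line at -1 in both pairs, and each measured neighbour lies above it.

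By chromosome, 30 members lie on chromosome 1, 15 on 2, 13 on 3, 21 on 4 and 14 on 5. Chromosomes 1 and 4 held 32.3% and 22.6% of the members, against 25.8% and 14.7% of the probe sets of 1 nuclear gene. Chromosomes 3 and 5 held 14.0% and 15.1%, against 20.5% and 22.5%. These shares are a description, since neighbouring relatives are not independent.

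Second probe sets did not always follow. GAT1_2.1 and AT3G60420 each had another probe set annotated to the same gene, and both of these were dim on every array and differed by 0.18 and 0.44 in pair 1 and -0.25 and -0.05 in pair 2. Their values lay between 2.93 and 4.47, near or under the arrays' lower quartiles, so each of these 2 members rests on its brighter probe set.

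Of 32 gene families and lists written as name patterns, 22 had a measured nuclear gene and 5 of those held a member. One of the 5 did so only because the symbol PAP85 begins like those of purple acid phosphatases. The lists with no member included 7 measured WRKY, 14 bZIP and 13 glutathione transferase genes, with median differences of -0.10, 0.08 and -0.05. In these lists 4, 3 and 8 genes were lower in both pairs, and 2, 6 and 2 higher. Single genes could differ more, such as WRKY53 (-1.53 in pair 1 and -0.72 in pair 2) and GSTU27 (-2.15 in pair 1 and -0.85 in pair 2). Unnamed probe sets may hold further genes of these families. Some other lists mixed in unrelated genes, such as cyclophilin genes among those named like cytochrome P450 genes, and their medians are not given. The patterns can find a gene only by its symbol or full name, so the 73 members known by locus could not be placed in a family. A further 11 lists were added after values were seen. They hold class III peroxidases, beta-glucosidases, xyloglucan endotransglucosylases, pectin methylesterases, phenylpropanoid genes, amylases and sucrose-phosphate synthases, methionine sulfoxide reductases, endoplasmic reticulum body genes, chitinases, organic cation transporters and flavin monooxygenases.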

How the data were processed

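The deposited values are log2 RMA summaries per probe set, RMA being named per the submitters' processing notes, with software, version and array grouping not given in the sources used here. They hold no detection call. Genes were taken from the platform annotation, of which 13513 probe sets had 1 gene, 503 several and 8730 none, and matched to TAIR10.1 records for names, chromosome and gene order (13367 probe sets, 13217 nuclear genes). A gene with several probe sets was represented in family counts by the brightest.

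Groups came from sample titles. Limma 3.58.1 in R 4.3.3 (lmFit, eBayes, Benjamini-Hochberg, threshold 0.05, 2 residual degrees of freedom) was fitted to all 22746 probe sets and tested on simulated data. It gave the background and the SEs. These SEs are moderated, that is, drawn toward a variance shared by all probe sets. A small SE is therefore not the spread of a gene's own arrays. The fit behind them had no replicate block, so shifts between replicates enter the SEs and the pairing of arrays is ignored. With no statement of separate plant pools, p-values measure only how far these arrays differ, possibly for technical reasons, and their small number limits precision.

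The members, families and added lists were chosen with earlier results of these data known. Named with values were the 30 members with the lowest weaker difference, family members, chromosome neighbours, members with a gene name and those next to the threshold. Alternatives were joint quantile and cyclic loess normalization, other thresholds, a filter removing the dimmest 25% of probe sets, a robust prior with a trend, no moderation, the replicate block and each array left out. Sequences were not analysed here.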

Additional observations from a re-analysis of the deposited data

How the results depend on the processing

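The number of members was 93 as reported, 97 with joint quantile normalization (85 of them shared) and 102 with cyclic loess (93 shared). It was 176 at a threshold of -0.8 and 9 at -1.5, which follows from the threshold itself. The filter on dim probe sets left 93. It kept the 21 members under the lower quartile in albino replicate 1, so it does not test dim albino signals. In either control array 0 members lay under that quartile. The filter on probe suffixes also left 93, but it could remove no member, since 0 carried such a suffix. Groups did not overlap for 91 members as reported, 89 with joint quantile normalization and 90 with cyclic loess. Limma's counts of called probe sets were 0 lower and 0 higher under each normalization, filter and prior. With no variance moderation, chosen after the data were seen, 1 was called lower. Leaving out 1 array gave 0 to 152 lower and 0 to 30 higher, all from the fit without albino replicate 2. At unadjusted p under 0.05 the settings gave 663 to 3343 probe sets in both directions. The members' median difference ran from -2.37 to -1.04 when 1 array was left out, lowest without albino replicate 2 and highest without albino replicate 1. The causes of these changes were not tested. Mean differences of 57 members, those given with values, were below 0 with joint quantile normalization and with each array left out, which the choice of members favours. The replicate block leaves each mean difference unchanged in this balanced layout, so it could not alter a sign. With the replicate block, limma called 0 lower and 0 higher (smallest adjusted p 0.217), with 3343 at an unadjusted p under 0.05. Deviations of same-numbered arrays from their group means correlated across probe sets (r = 0.662), but no label ties a replicate number to a batch.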
